A study of Mus musculus with 15 samples.

Results

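Chemokine ligands are small secreted or membrane-anchored proteins that direct the movement of leukocytes and other cells, and their transcripts were followed here in mouse prostate organoids that lacked Setd2, Ezh2 or both. They were taken as all gene symbols made of Ccl, Cxcl or Cx3cl, a number and at most 1 trailing letter, which gave 36 of the 21886 genes listed with RPKM values (reads scaled to gene length and library total; 12 CXC, 23 CC and 1 CX3C ligand) and 23 of the 14301 genes listed with counts. In the 8 libraries with RPKM values, 29 of the 36 were above 0 in some library and 18 had a mean of at least 1 RPKM and were tested. Of the 19 tested on the counts, 10 reached 5 CPM (counts scaled to the library total) in the mean of a group.

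The organoids were grown from prostate epithelial cells of C57BL/6 mice, and 12 RNA libraries fell into 6 groups of 2. In the first 4 groups, from 3-month-old mice, the control carried neither deletion, Setd2 null (Setd2PC-/-) and Ezh2 null (Ezh2PC-/-) lacked 1 histone methyltransferase in the prostate, and double null lacked both. The other 2 groups, from 2-month-old mice, carried wild-type Ezh2 or the K735R form of Ezh2 (Ezh2K735R). Within the first 4 groups, and within the last 2, all libraries shared the same other alterations, which differed between the 2 sets. Each library of the first 4 groups was an equal-mass pool of RNA from 3 biological replicates, and no pool size is given for the other 2. Because nothing says that the 2 libraries of a group came from separate animals, the p-values measure the spread between libraries, which may be technical. SETD2 places methyl groups on lysine 36 of histone H3, and EZH2 is the catalytic subunit of Polycomb repressive complex 2, which places the repressive mark on lysine 27.

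Chemokines are named for the spacing of their first cysteines (CC, CXC and CX3C) and act through G protein-coupled receptors. CXC ligands with a glutamate-leucine-arginine motif attract neutrophils through CXCR2, the ligands induced by interferon attract activated T cells through CXCR3, and many CC ligands attract monocytes, eosinophils or dendritic cells. Inflammatory ligands are classical targets of NF-kB and of interferon signalling in epithelial cells, whereas mucosal ligands such as CCL28 and CXCL17 are made by secretory epithelia. In the prostate, epithelial chemokines are known for drawing in neutrophils and myeloid cells.

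The sequences just upstream of the transcription start are shown first for ligands that lie side by side on chromosome 5, because 3 of them moved together in the results and 1 did not. They come from RefSeq promoter windows of GRCm38.p6 (250 bases before to 50 after the start), which matched 26 of the 36 ligands by gene identifier. Cxcl5, Cxcl16, Cxcl17, Ccl2, Ccl4, Ccl5, Ccl7, Ccl11, Ccl24 and Ccl26 have no entry in that table. Each run below holds the last 120 bases before the start, 5′ to 3′ on the gene's strand. Capitals mark matches to the kappaB motif GGGNNTTTCC or to TATAAA, on either strand.
Cxcl1, chr5:90891125-90891244, plus strand: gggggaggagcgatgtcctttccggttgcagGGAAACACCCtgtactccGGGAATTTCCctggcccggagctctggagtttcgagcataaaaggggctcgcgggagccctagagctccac
Cxcl2, chr5:90903779-90903898, plus strand: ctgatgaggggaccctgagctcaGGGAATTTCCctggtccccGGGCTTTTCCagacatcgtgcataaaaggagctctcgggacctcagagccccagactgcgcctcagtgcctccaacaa
Cxcl3, chr5:90785981-90786100, plus strand: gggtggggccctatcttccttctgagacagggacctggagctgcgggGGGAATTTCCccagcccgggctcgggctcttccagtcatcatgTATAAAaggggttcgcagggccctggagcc
Cxcl15, chr5:90794414-90794533, plus strand: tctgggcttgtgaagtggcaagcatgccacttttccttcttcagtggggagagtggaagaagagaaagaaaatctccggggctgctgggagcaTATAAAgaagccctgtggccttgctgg

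The same 10 letters, GGGAATTTCC, begin 71 bases before the start in Cxcl1, 97 in Cxcl2 and 73 in Cxcl3. Cxcl1 and Cxcl2 each held a further kappaB match, the one in Cxcl1 on the opposite strand, and the Cxcl15 window held none. Among the 26 ligands with a window, Ccl20 and Ccl9 were the others with a kappaB match, so 5 had one, beside 1.89% of the 27025 genes in the table (1.63% of 32851 windows of the same length). In Ezh2 null against control, Ccl9 was called higher and Ccl20 was not called. Cx3cl1 and Cxcl13, without a kappaB match, were called lower with Ezh2 deletion on either background. The runs shown were chosen by these results, so a link between the motif and the changes was not tested. No motif match overlapped another in the runs shown. The interferon-stimulated response element, searched as GAAANNGAAA, matched in Ccl19, Cxcl10 and Cxcl14, that is 3 of 26, beside 3.99% of all genes (3.44% of windows), and TATAAA in 10 of 26, beside 15.7% of all genes (13.6% of windows). In Cxcl10, the interferon-inducible ligand described further on, the element begins 213 bases before the start and is in capitals in this 60-base run.
Cxcl10, chr5:92349060-92349119, minus strand: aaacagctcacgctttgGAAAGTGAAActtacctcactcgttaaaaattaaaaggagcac
A match is a match of letters only, and binding was not measured in the RNA libraries.

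Setd2 was at 17.0 and 16.1 RPKM in control and 8.75 and 10.3 in Setd2 null, against 14.6 and 11.6 in Ezh2 null and 8.99 and 7.54 in the double null libraries. Ezh2 was at 19.4 and 20.9 RPKM in control and 24.2 and 20.7 in Setd2 null, against 13.8 and 11.6 in Ezh2 null and 16.6 and 14.2 in organoids lacking both. Setd2 was lower in double null than in Ezh2 null (adjusted p = 0.0425 in limma) and did not pass in Setd2 null against control (adjusted p = 0.0563), and Ezh2 was lower in Ezh2 null than in control (adjusted p = 0.00414) and in double null than in Setd2 null (adjusted p = 0.0121). Which exons were deleted is not given in the sources used here, so these gene-wide levels check the labels only in part. The libraries held 29713047 to 54426231 recovered reads on listed genes, with Ezh2 null and double null the deeper (47205937 or more), and 28831228 to 37482322 counts. Of 10 epithelial markers, 8 reached 1 RPKM in the mean of control and of Setd2 null, 10 in the groups without Ezh2, and 9 reached 1 CPM in both groups of counts. Pbsn, a secretory luminal gene, was at 0 in control and Setd2 null and 2.19 to 3.95 RPKM in Ezh2 null and double null. Summed stroma markers were at 2.06 to 4.205 RPKM in control and Setd2 null and 29.2 to 34.2 RPKM in Ezh2 null and double null, where 4 of 8 reached 1 RPKM and none was at 0. Summed endothelium markers were at 0.546 to 0.664 RPKM without and 1.97 to 3.18 RPKM with the Ezh2 deletion, of which Esam made up most, and the other 4 were each at 0.173 RPKM or less in all 8 libraries. Fewer cells of a type and less RNA per cell cannot be told apart in such bulk libraries. The part of depth and of these markers in the ligands' changes was not tested.

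**Figure D1:**
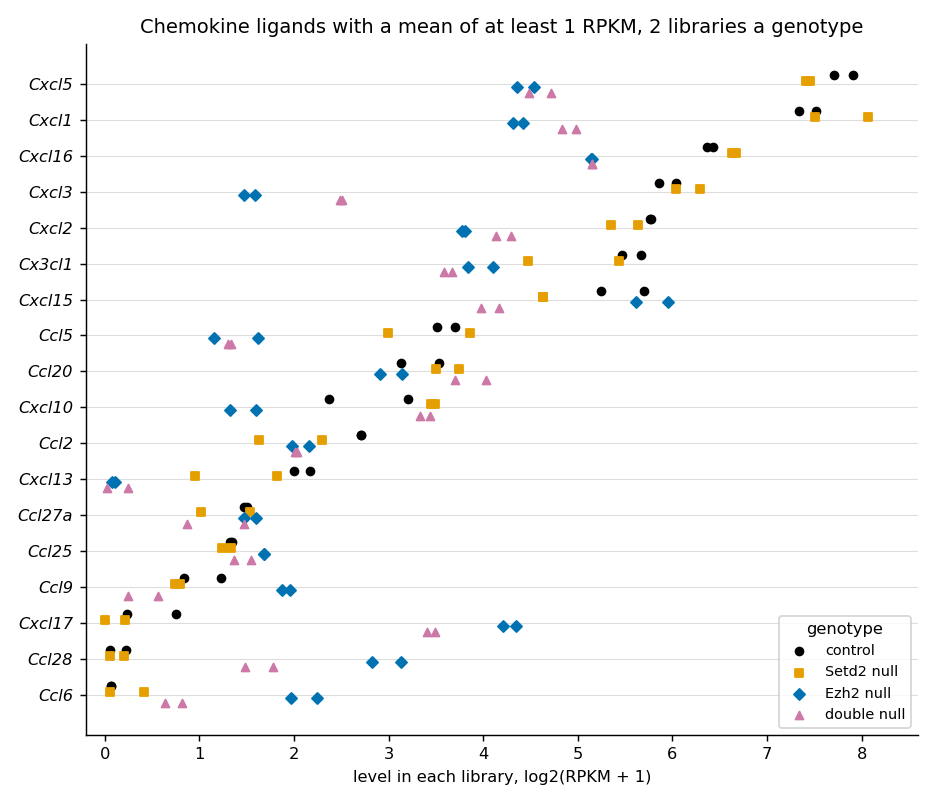
Level of the 18 tested chemokine ligands in each of 8 libraries, as log2(RPKM + 1) on the horizontal axis, with 1 point per library and 1 marker shape and colour per genotype. Cxcl5, Cxcl1, Cxcl16, Cxcl3 and Cxcl2 lead in control and Setd2 null, and Cxcl17, Ccl28 and Ccl6 stand near 0 there and are higher in Ezh2 null and double null.

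Summed over all 36 ligands, the level was 718.6 and 730.4 RPKM in control and 741 and 675 in Setd2 null, against 219 and 203 in Ezh2 null and 187 and 176 with both deleted. The libraries with the Ezh2 deletion were all lower than those without it. Control and Setd2 null shared the same 5 leading ligands, Cxcl5, Cxcl1, Cxcl16, Cxcl3 and Cxcl2, which made up 80.9% to 88.7% of the sum. In Ezh2 null the leading ligand was Cxcl15 and Cxcl17 had entered the first 5, and in double null the leading ligand was Cxcl16. A value above 0 was found for 23 or 24 ligands in each control and Setd2 null library and for 24 to 27 in each Ezh2 null and double null library, which were also sequenced more deeply.

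Ezh2 deletion was associated with the broadest change among the ligands. Of the 18 tested, 10 were lower and 5 higher in Ezh2 null than in control (limma on log2(RPKM + 1), Benjamini-Hochberg over 11338 genes, two-sided, adjusted p under 0.05). Over all genes tested, 20.5% were called lower and 36.1% higher, so a call in either direction was common in this comparison. The median log2 fold change was -0.94 over the ligands and 0.18 over all genes. Log2 fold changes of RPKM are differences on the log2(RPKM + 1) scale throughout. At low levels they are smaller than the log2 of the ratio of means. This median of all genes moved to 0.01 with median-ratio scaling of the libraries, under which 3077 genes were higher and 3103 lower in place of 4096 and 2320, and 3 ligands were higher and 11 lower. Of the 13 ligands with at least 1 RPKM in the mean of every group, 9 were lower and 1 higher. The other 5 (Cxcl13, Cxcl17, Ccl28, Ccl6 and Ccl9) passed the filter through the groups in which they were high, so their share of calls says nothing about the ligands as a class. The share of calls over all genes with at least 1 RPKM in every group was not computed, here or for the comparisons below.

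The same deletion on the Setd2 null background, double null against Setd2 null, shares no library with the first comparison. The 2 comparisons are still not independent, because they share 1 fit and its estimate of spread. Deviations of same-numbered Ezh2 null and double null libraries also correlated at 0.933 over genes. In double null against Setd2 null, 9 of the 18 ligands were lower and 3 higher, beside 19.4% and 35.6% of all genes, with a median of -0.46 over the ligands and 0.18 over all genes. Median-ratio scaling moved the latter median to 0.01, called 2920 genes higher and 2990 lower in place of 4036 and 2205, and 10 ligands lower and 2 higher. The 8 ligands lower in both comparisons were Cxcl1, Cxcl2, Cxcl3, Cxcl5, Cxcl13, Cxcl16, Cx3cl1 and Ccl5. The 3 higher in both were Cxcl17, Ccl28 and Ccl6. How many calls the 2 comparisons share over all genes was not counted, so these numbers have no background. All 3 higher ligands, and Cxcl13 among the 8, passed the filter through the groups in which they were high. In double null against Setd2 null, 8 of the 13 ligands with at least 1 RPKM in the mean of every group were lower and 0 higher.

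**Figure D2:**
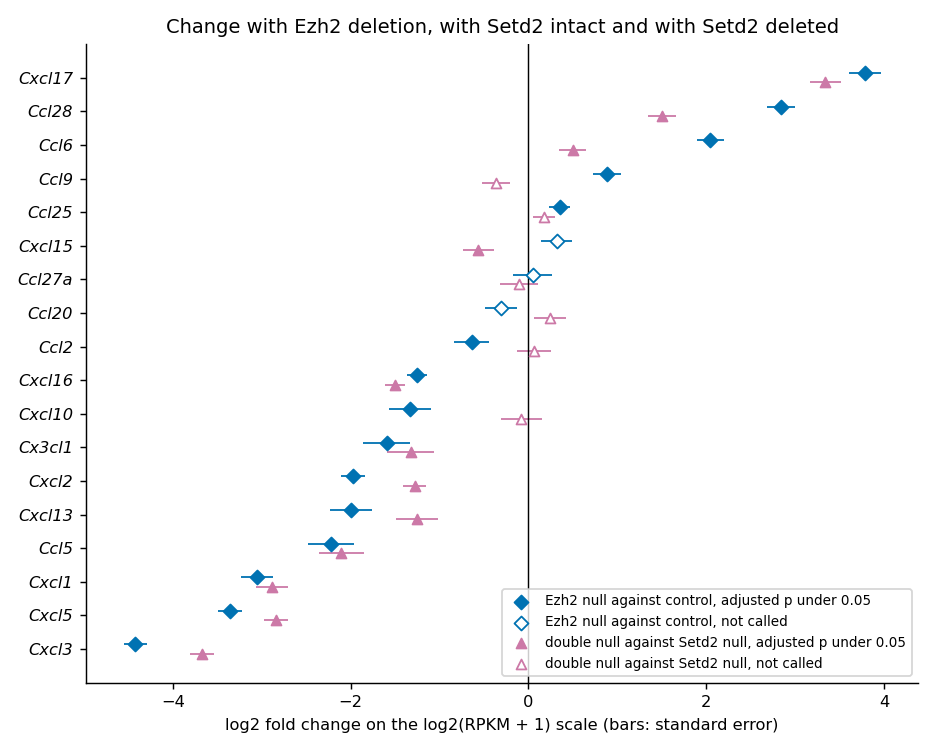
Log2 fold change of the 18 tested ligands, on the log2(RPKM + 1) scale, with Ezh2 deletion on the background with Setd2 (diamonds) and without it (triangles). Bars are standard errors, and filled symbols passed an adjusted p of 0.05. Cxcl3 lies lowest (-4.42 and -3.67) and Cxcl17 highest (3.78 and 3.34) in both comparisons.

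The neutrophil-attracting CXC ligands Cxcl1, Cxcl2, Cxcl3, Cxcl5 and Cxcl15 were the most abundant role group without the Ezh2 deletion. Cxcl3 was at 57.0 and 64.8 RPKM in control and 77.4 and 64.8 in Setd2 null, against 2.00 and 1.78 in Ezh2 null and 4.69 and 4.585 in the double null libraries. Its Ezh2 null libraries were the lowest, double null lay above them without overlap, and neither overlapped the groups without the deletion. The mean fell 32.3-fold from control to Ezh2 null (log2 fold change -4.42 ± 0.13, where ± is the standard error throughout, adjusted p = 1.73e-08 in limma) and 15.3-fold from Setd2 null to double null (-3.67 ± 0.13, adjusted p = 5.26e-08). The Ezh2 null values rest on 113 and 86 reads and the control values on 1760 and 2007.

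Cxcl5 was at 208 and 239.9 RPKM in control and 175 and 169.7 in Setd2 null, against 22.3 and 19.6 in Ezh2 null and 25.2 and 21.4 in organoids lacking both. Every library with the Ezh2 deletion was below every library without it, and the Ezh2 null and double null libraries overlapped. Its mean fell 10.7-fold in Ezh2 null against control (-3.36 ± 0.14, adjusted p = 9.66e-08 in limma) and 7.39-fold in double null against Setd2 null (-2.84 ± 0.14, adjusted p = 3.16e-07). Cxcl1, the mouse counterpart of the GRO chemokines, was at 182 and 161 RPKM in control and 268 and 181 in Setd2 null, against 20.5 and 18.9 in Ezh2 null and 30.6 and 27.5 with both deleted. Control and Setd2 null overlapped, with Setd2 null replicate 1 the highest. Its mean fell 8.69-fold with Ezh2 deletion alone (-3.05 ± 0.18, adjusted p = 9.15e-07 in limma) and 7.72-fold on the Setd2 null background (-2.88 ± 0.18, adjusted p = 1.5e-06).

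Cxcl2 (MIP-2) was at 53.3 and 53.7 RPKM in control and 39.8 and 48.75 in Setd2 null, against 12.7 and 13.0 in Ezh2 null and 16.5 and 18.6 in the double null libraries. It was the least changed of the 4 ligands that fell in both comparisons within this role, and the groups with and without the Ezh2 deletion did not overlap. The mean fell 4.16-fold from control to Ezh2 null (-1.98 ± 0.13, adjusted p = 2.02e-06 in limma) and 2.52-fold from Setd2 null to double null (-1.28 ± 0.13, adjusted p = 4.03e-05). How reads shared between these similar genes were divided is not given in the sources used here, so the split among Cxcl1, Cxcl2 and Cxcl3 is less certain than their joint fall.

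Cxcl15 (lungkine), which lies between Cxcl3 and Cxcl1 on the same strand, did not follow them. It was at 50.8 and 36.8 RPKM in control and 23.9 and 23.8 in Setd2 null, against 60.9 and 48.2 in Ezh2 null and 17.0 and 14.7 in organoids lacking both. The Ezh2 null and control libraries overlapped, and the double null libraries were the lowest, below those of Setd2 null. The change from control to Ezh2 null was 0.32 ± 0.18 on the log2 scale (adjusted p = 0.147 in limma, 0.0455 with the replicate number as a block). Against Ezh2 null, double null was 3.44-fold lower (-1.71 ± 0.18, adjusted p = 0.000361), and against Setd2 null it was 1.5-fold lower (-0.56 ± 0.18, adjusted p = 0.0214). The second of these calls was lost with no filter on low values (adjusted p = 0.0501) and without Setd2 null replicate 1 (0.0772), Setd2 null replicate 2 (0.0778) or double null replicate 2 (0.108). Setd2 null against control differed by -0.83 ± 0.18, which did not pass (adjusted p = 0.0665), and this comparison did pass with the replicate block (0.0241) and without Ezh2 null replicate 1 (0.0394) or 2 (0.0396).

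**Figure D3:**
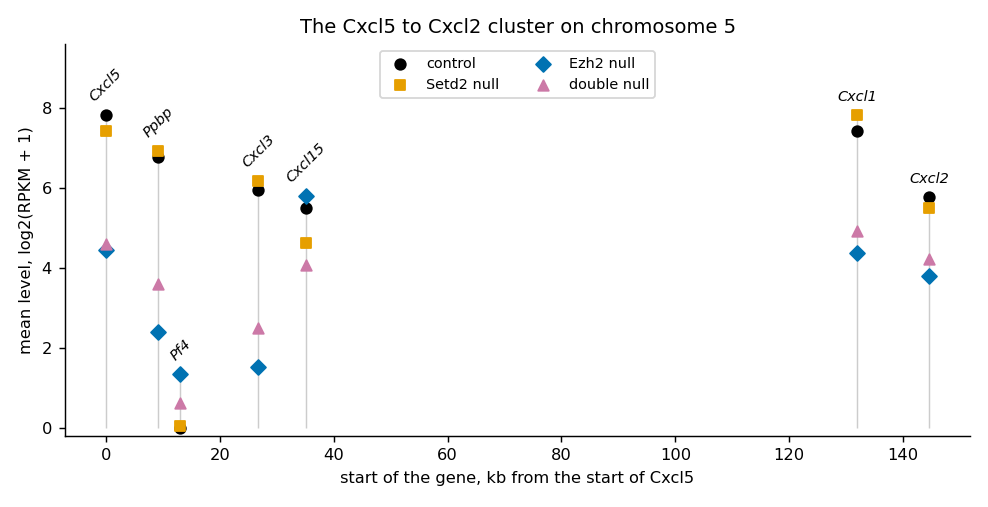
Mean level of each listed gene of the chromosome 5 chemokine cluster (mean of 2 libraries, log2(RPKM + 1)) against the distance of its start from the start of Cxcl5 in kb, by genotype. Ezh2 null and double null lie below control and Setd2 null for Cxcl5, Ppbp, Cxcl3, Cxcl1 and Cxcl2, and not for Pf4, while for Cxcl15 Ezh2 null is above control.

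These 5 ligands lie in 146.6 kb of mm10, chr5:90759298-90905938, all on the plus strand, together with Ppbp and Pf4, which the naming rule leaves out. Ppbp encodes a further CXCR2 ligand, from 9.2 kb after the start of Cxcl5, and was at 124 and 92.0 RPKM in control and 155 and 86.6 in Setd2 null, against 3.99 and 4.505 in Ezh2 null and 11.02 and 11.4 with both deleted. It fell with Ezh2 deletion by 4.36 on the log2 scale against control (adjusted p = 6.46e-07 in limma) and by 3.26 against Setd2 null (adjusted p = 4.91e-06). Pf4, platelet factor 4, begins 13.1 kb after the start of Cxcl5. Its control libraries were both at 0 and its Setd2 null libraries at 0.0515 and 0 RPKM, against 1.56 and 1.502 in Ezh2 null and 0.753 and 0.335 with both deleted. Pf4 was under the filter and was not tested. Neighbours within the cluster therefore included genes that fell, a gene that was not called in Ezh2 null and a gene near 0 without the deletion.

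Of the interferon-inducible ligands, Cxcl10 (IP-10) was the 1 tested. It was at 8.24 and 4.18 RPKM in control and 9.88 and 10.3 in Setd2 null, against 1.503 and 2.025 in Ezh2 null and 9.85 and 9.105 in the double null libraries. Ezh2 null was the lowest group and overlapped no other, whereas double null lay just under Setd2 null and above control. Cxcl10 was 3.52-fold lower in Ezh2 null than in control (-1.33 ± 0.23, adjusted p = 0.00101 in limma) and 5.37-fold higher in double null than in Ezh2 null (1.93 ± 0.23, adjusted p = 0.00104). Double null against Setd2 null differed by -0.08 ± 0.23 (adjusted p = 0.789). The difference between the effects of Ezh2 deletion on the 2 backgrounds, the interaction, was 1.25 ± 0.33 and did not pass (adjusted p = 0.106), although it did without control replicate 2 (0.0129). The whole Cxcl10 gene lies inside Art3 on the opposite strand, and reads of the 2 cannot be told apart without strand. Art3 was at 0.316 to 1.63 RPKM. Cxcl9 (MIG) was at 0.170 and 0.4185 RPKM in control, 0.0626 and 0.154 in Setd2 null and 0.111 and 0.0610 in double null, and had 0 reads in both Ezh2 null libraries, where 3 reads, taken here as the floor for a count of 0, would be 0.0186 and 0.0217 RPKM. With no filter, Cxcl9 was lower in Ezh2 null than in control (-0.37, adjusted p = 0.0178 in limma).

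**Figure D4:**
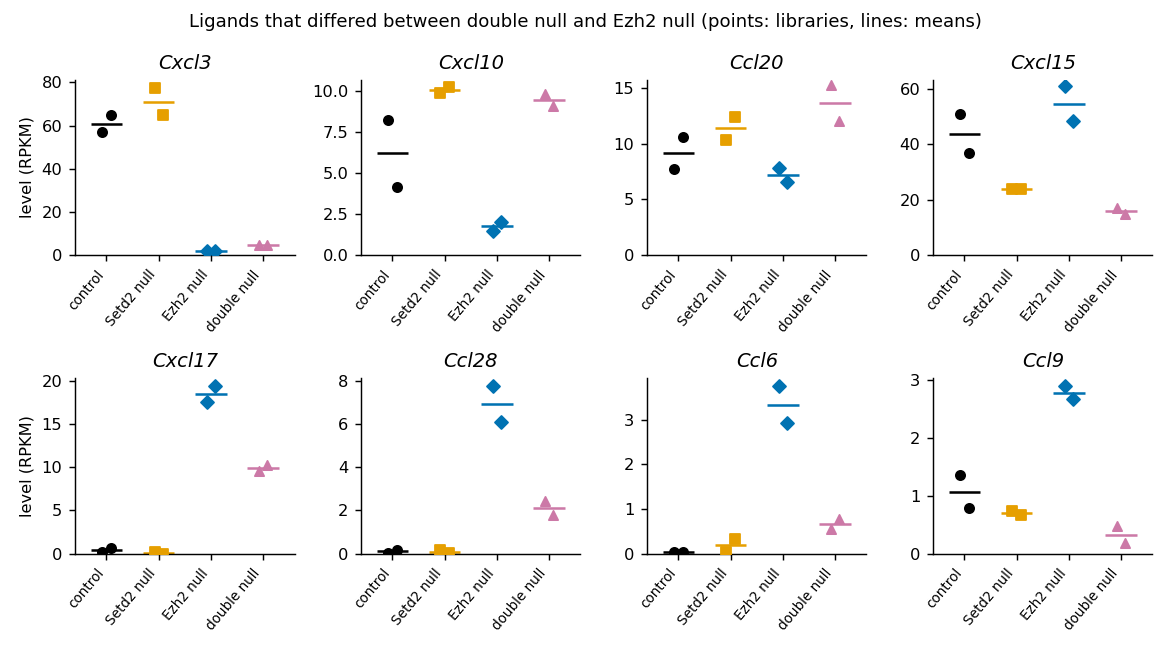
Level in RPKM of the 8 ligands that differed between double null and Ezh2 null, with 1 point per library and a line at the mean of each genotype, on axes from 0. Cxcl3, Cxcl10 and Ccl20 are higher in double null than in Ezh2 null, and Cxcl15, Cxcl17, Ccl28, Ccl6 and Ccl9 are lower.

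Of the 4 CXC ligands classed as homeostatic, Cxcl17 and Cxcl13 were tested and moved in opposite directions. Cxcl17, a mucosal ligand on chr7:25400053-25412886, was at 0.174 and 0.692 RPKM in control and 0.1595 and 0 in Setd2 null, against 17.5 and 19.3 in Ezh2 null and 9.59 and 10.2 in organoids lacking both. The values without the deletion rest on 4, 16, 4 and 0 reads and those with it on 362 to 740. All 4 libraries with the Ezh2 deletion were far above the other 4. Cxcl17 rose by 3.78 ± 0.18 on the log2(RPKM + 1) scale in Ezh2 null against control (adjusted p = 2.02e-07 in limma) and by 3.34 ± 0.18 in double null against Setd2 null (adjusted p = 4.85e-07). Double null was 1.86-fold lower than Ezh2 null (-0.83 ± 0.18, adjusted p = 0.0216), a call that was lost with edgeR on recovered reads (0.548), with a pseudocount of 0.1 RPKM (0.611), with no filter (0.0571) and without any 1 of the 4 libraries compared (0.0503 to 0.0943).

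Cxcl13, the B cell attractant, was at 3.49 and 3.00 RPKM in control and 2.53 and 0.9405 in Setd2 null, against 0.0774 and 0.0543 in Ezh2 null and 0.1905 and 0.01695 with both deleted. The Ezh2 null libraries held 5 and 3 of its reads and the double null libraries 11 and 1. It fell by 1.99 on the log2(RPKM + 1) scale in Ezh2 null against control (SE 0.24, adjusted p = 8.89e-05 in limma) and by 1.25 in double null against Setd2 null (SE 0.24, adjusted p = 0.00165). Its mean fell 49.3-fold and 16.7-fold in these comparisons. Cxcl12 and Cxcl14 were detected under the filter. Cxcl14, an epithelial ligand, was at 0.134 and 0.0400 RPKM in control and 0.0614 and 0.0795 in Setd2 null, against 1.34 and 1.34 in Ezh2 null and 0.588 and 0.743 in the double null libraries, and with no filter it was higher in Ezh2 null than in control (1.11, adjusted p = 0.000111 in limma). Cxcl12, the CXCR4 ligand of stroma, was at 0.249 RPKM or less in all 8 libraries, while the summed stroma markers were higher with the Ezh2 deletion and Acta2, 1 of them, was lower (0.556 to 2.00 RPKM without and 0.0556 to 0.223 with it).

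The ligands anchored in the cell membrane, Cxcl16 and Cx3cl1, both fell with Ezh2 deletion on either background. Cxcl16, which also takes up oxidized lipids as a scavenger receptor, lies at chr11:70454232-70459984 and was at 81.4 and 85.1 RPKM in control and 98.2 and 100.9 in Setd2 null, against 34.6 and 34.2 in Ezh2 null and 34.6 and 34.6 in organoids lacking both. The 4 libraries with the deletion were nearly equal and well under the other 4. Cxcl16 was 2.42-fold lower in Ezh2 null than in control (-1.25 ± 0.11, adjusted p = 1.5e-05 in limma) and 2.88-fold lower in double null than in Setd2 null (-1.497 ± 0.11, adjusted p = 4.98e-06). Cx3cl1 (fractalkine, chr8:94772180-94782427) was at 43.3 and 49.7 RPKM in control and 21.2 and 42.2 in Setd2 null, against 13.3 and 16.2 in Ezh2 null and 11.7 and 11.01 with both deleted. Setd2 null replicate 1 was the lowest of the libraries without the Ezh2 deletion and still above all libraries with it. Cx3cl1 was 3.15-fold lower in Ezh2 null than in control (-1.60 ± 0.26, adjusted p = 0.000824) and 2.79-fold lower in double null than in Setd2 null (-1.33 ± 0.26, adjusted p = 0.00247). The 363 bases at which Cxcl16 overlaps Zmynd15 on the opposite strand cannot be assigned without strand, and Zmynd15 was at 0.600 to 3.84 RPKM.

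The CC ligands were lower than the leading CXC ligands, with Ccl5, Ccl20, Ccl28 and Ccl2 the 4 that reached 5 RPKM in the mean of some group. Ccl5 (RANTES, chr11:83525778-83530518), which attracts T cells and monocytes, was at 12.03 and 10.4 RPKM in control and 6.95 and 13.5 in Setd2 null, against 2.06 and 1.225 in Ezh2 null and 1.48 and 1.52 in the double null libraries. The Setd2 null libraries spanned the control values, and all libraries with the Ezh2 deletion lay under both groups. Ccl5 was 6.81-fold lower in Ezh2 null than in control (-2.22 ± 0.26, adjusted p = 7.48e-05 in limma) and 6.83-fold lower in double null than in Setd2 null (-2.10 ± 0.26, adjusted p = 0.000115). Ccl2 (MCP-1, chr11:82035577-82037452), the monocyte attractant, was at 5.53 and 5.54 RPKM in control and 3.91 and 2.09 in Setd2 null, against 2.95 and 3.47 in Ezh2 null and 3.02 and 3.10 in organoids lacking both. Control stood above the other 3 groups, which overlapped. Ccl2 was 1.73-fold lower in Ezh2 null than in control (-0.64 ± 0.20, adjusted p = 0.0193 in limma), a call that was lost with no filter (0.0508) and without control replicate 1 (0.0760), control replicate 2 (0.0766) or Ezh2 null replicate 1 (0.0760), and double null against Setd2 null did not pass (0.06 ± 0.20, adjusted p = 0.805).

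Ccl6 and Ccl9, macrophage ligands that are neighbours of Ccl5 on chromosome 11, were higher in Ezh2 null than in any other group. Ccl6 was at 0.04595 and 0.0458 RPKM in control (2 reads each) and 0.0422 and 0.332 in Setd2 null (2 and 17 reads), against 3.745 and 2.93 in Ezh2 null (299 and 200 reads) and 0.561 and 0.768 with both deleted (40 and 56 reads). Ccl9 was at 1.35 and 0.786 RPKM in control and 0.735 and 0.671 in Setd2 null, against 2.89 and 2.66 in Ezh2 null and 0.475 and 0.183 with both deleted. For both ligands, no Ezh2 null library overlapped a library of another group. Ccl6 rose by 2.05 ± 0.16 on the log2(RPKM + 1) scale in Ezh2 null against control (adjusted p = 4.80e-06 in limma), and Ccl9 by 0.88 ± 0.16 (adjusted p = 0.00133). In double null against Ezh2 null, Ccl6 was 5.02-fold lower (-1.38 ± 0.16, adjusted p = 0.000671) and Ccl9 8.44-fold lower (-1.52 ± 0.16, adjusted p = 0.000493). The Ccl6 call against Ezh2 null was lost with edgeR on recovered reads (0.0595). In double null against Setd2 null, Ccl6 was higher by 0.50 ± 0.16 (adjusted p = 0.0222), which was lost without Setd2 null replicate 1 (0.142) or double null replicate 2 (0.124) and with edgeR on recovered reads (0.0639), while Ccl9 did not pass (-0.37 ± 0.16, adjusted p = 0.0817) and passed as lower with quantile normalization (0.00165), with median-ratio scaling (0.0485) and with edgeR on recovered reads (0.0343).

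Some markers of immune cells were highest in Ezh2 null, as these 2 ligands were, and the summed level of the list was not. In double null Ccl6 was second highest, whereas Ccl9 was lowest, with a mean of 0.329 RPKM against 1.07 in control. Lyz2, a lysozyme of myeloid cells, was at 0 in all control and Setd2 null libraries, against 7.69 and 8.20 RPKM in Ezh2 null and 2.67 and 3.02 RPKM with both deleted. Adgre1, the macrophage antigen F4/80, was at 0 in the first 2 groups, against 0.921 and 1.15 RPKM in Ezh2 null and 0.331 and 0.258 with both deleted. Ptprc, the pan-leukocyte gene, was at 0 in those 2 groups and at most 0.0582 RPKM in the others, and Cd3e, of T cells, was above 0 only in Ezh2 null, at 0.08295 and 0.01385 RPKM. The summed level of 10 immune markers, led by Cd68 in control and Setd2 null, was 22.8 to 24.7 RPKM in control and 34.03 to 40.1 in Setd2 null, against 14.5 to 14.9 in Ezh2 null and 17.3 to 18.9 with both deleted. The part of immune cells in the levels of Ccl6 and Ccl9 was not tested. Ccl3, another macrophage ligand, was under the filter, with 0, 0, 0 and 1 reads in control and Setd2 null, against 13 and 19 reads in Ezh2 null and 1 and 2 reads with both deleted. Ccl3 and Ccl4 overlap on opposite strands over 755 bases, and the eosinophil attractant Ccl11 was at 0 in control and Setd2 null, against 0.402 and 0.255 RPKM in Ezh2 null and 0.0750 and 0 with both deleted.

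Ccl28, the mucosal ligand of CCR10 at chr13:119610520-119654359, was nearly absent without the Ezh2 deletion. It was at 0.0376 and 0.1685 RPKM in control and 0.1496 and 0.03725 in Setd2 null, against 7.74 and 6.09 in Ezh2 null and 2.44 and 1.795 in the double null libraries, on 6, 27, 26 and 7 reads in the first 4 libraries and 480 to 2265 in the others. The 3 levels, Ezh2 null above double null above the rest, did not overlap. Ccl28 rose by 2.84 ± 0.16 on the log2(RPKM + 1) scale in Ezh2 null against control (adjusted p = 5.63e-07 in limma) and by 1.51 ± 0.16 in double null against Setd2 null (adjusted p = 4.05e-05). Double null was 3.27-fold lower than Ezh2 null (-1.34 ± 0.16, adjusted p = 0.000799), which was lost with edgeR on recovered reads (0.244). Ccl25, the CCR9 ligand, was at 1.5 and 1.54 RPKM in control and 1.355 and 1.52 in Setd2 null, against 2.22 and 2.215 in Ezh2 null and 1.58 and 1.92 in organoids lacking both. Its rise in Ezh2 null against control (0.35 ± 0.12, adjusted p = 0.0304) was 0.18 relative to the median of all genes and was lost with either other scaling (0.132 and 0.421), with edgeR on recovered reads (0.346) and without any 1 of the 4 libraries compared (0.0979 to 0.119). Ccl27a, a skin ligand, was called in no comparison and was at 0.828 to 2.03 RPKM.

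Ccl20, the CCR6 ligand that attracts dendritic cells and T helper 17 cells, was at 7.73 and 10.6 RPKM in control and 10.3 and 12.4 in Setd2 null, against 7.83 and 6.53 in Ezh2 null and 15.3 and 12.1 with both deleted. Its Ezh2 null and control libraries overlapped, as did its double null and Setd2 null libraries. Double null was 1.90-fold higher than Ezh2 null (0.84 ± 0.18, adjusted p = 0.0223 in limma), a call lost with no filter (0.062), with only the groups compared (0.0732), with edgeR on recovered reads (0.0567) and without Ezh2 null replicate 2 (0.109) or double null replicate 1 (0.129). Ccl17, Ccl22, Ccl7, Ccl8 and Ccl27b were detected at 0.517 RPKM or less. Ccl1, Ccl12, Ccl19, Ccl21a, Ccl21b, Ccl24 and Ccl26 were at 0 in all 8 libraries, where a count of 0 leaves room for a low level, taken here as up to 3 expected reads.

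Setd2 deletion with Ezh2 intact changed no ligand past the threshold. None of the 18 was called higher or lower in Setd2 null against control in limma, beside 0.379% and 0.688% of all genes. An unadjusted p under 0.05 was found for 7 of the 18, a larger share than the 11.6% of all genes. With edgeR on recovered reads the counts were likewise 0 and 0. The largest difference was that of Cxcl15 given above, followed by Ccl2 (-0.75 ± 0.20, adjusted p = 0.144), Cxcl13 (-0.70 ± 0.24, adjusted p = 0.269) and Cxcl10 (0.68 ± 0.23, adjusted p = 0.276). Without Setd2 null replicate 1, Ccl2 (0.0372) and Cxcl13 (0.0467) passed as lower, and without Setd2 null replicate 2, Cx3cl1 did (0.0344). Cxcl17 had 0 reads in Setd2 null replicate 2, where 3 reads would be 0.111 RPKM.

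Setd2 deletion in organoids that also lacked Ezh2, double null against Ezh2 null, called 3 ligands higher and 5 lower, beside 3.79% and 2.7% of all genes. The 3 higher were Cxcl10, Cxcl3 (0.97 ± 0.13, adjusted p = 0.00207 in limma) and Ccl20, and the 5 lower were Cxcl15, Ccl9, Ccl6, Ccl28 and Cxcl17. Of the 13 ligands with at least 1 RPKM in the mean of every group, 3 were higher and 1 lower, and the other 4 lower ligands passed the filter through the groups in which they were high. With edgeR on recovered reads 2 were lower. With the replicate number as a block, Cxcl1 (adjusted p = 0.0418) and Cxcl2 (0.038) were also called higher. Cxcl3 was 2.46-fold higher in double null than in Ezh2 null and remained far under its level without the Ezh2 deletion. Against control, double null had 4 ligands higher and 11 lower, beside 34.2% and 20.0% of all genes, and with median-ratio scaling 2 higher and 11 lower, with 2930 genes higher and 2957 lower in place of 3874 and 2273. Double null and control share their libraries with the comparisons above. Of the 18 ligands 17 were called in some of the 6 comparisons, as were 67.1% of all genes.

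The interaction, which tests whether Ezh2 deletion acted differently with and without Setd2, called 0 ligands higher and 3 lower, beside 1.69% and 0.9% of all genes. The 3 were Ccl6 (-1.55 ± 0.22, adjusted p = 0.0056 in limma), Ccl28 (-1.33 ± 0.22, adjusted p = 0.0126) and Ccl9 (-1.25 ± 0.23, adjusted p = 0.0204), whose rise with Ezh2 deletion was smaller, or for Ccl9 not found, on the Setd2 null background. All 3 are ligands with a mean under 1 RPKM in some group, and none was called with a pseudocount of 0.1 RPKM or with edgeR on recovered reads, so these calls depend on the scale. The next smallest adjusted p-values were those of Cxcl3 (0.75 ± 0.19, adjusted p = 0.0832), Cxcl10, Cxcl2 (0.70 ± 0.19, adjusted p = 0.112) and Cxcl15 (-0.88 ± 0.25, adjusted p = 0.128). Cxcl3 passed with a pseudocount of 0.1 RPKM (0.0339), quantile normalization (0.043) and edgeR on recovered reads (0.0489). With the replicate block, Cxcl2 passed as higher (0.0386) and Cxcl15 as lower (0.0346).

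Other genes of the pathway were taken from lists chosen with earlier results of these data known. Their counts of calls are to be read beside the shares of all genes called, 20.5% lower and 36.1% higher in Ezh2 null against control and 19.4% lower and 35.6% higher in double null against Setd2 null. None of 18 chemokine receptors reached the filter, the highest value being 1.75 RPKM for Cxcr4 in Ezh2 null replicate 2, and Ccr6, Ccr8 and Cx3cr1 were at 0 in all 8 libraries. Cxcr2, the receptor of the neutrophil-attracting ligands, was at 0.0345 to 0.456 RPKM. Among the atypical receptors and scavengers, Ackr3, which binds CXCL12, rose in Ezh2 null against control (0.85 ± 0.12, adjusted p = 0.000223 in limma), and 2 of 6 were tested. Mif, an unrelated cytokine that binds CXCR2 and CXCR4, fell from 811 to 364 RPKM in the mean (adjusted p = 0.000161).

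Of 17 NF-kB subunits and feedback genes, 6 were lower and 1 higher in Ezh2 null against control, and 9 lower and 1 higher in double null against Setd2 null, with medians of -0.16 and -0.34 beside 0.18 and 0.18 for all genes. The inhibitor Nfkbia was at 155 and 149 RPKM in control and 179 and 155 in Setd2 null, against 53.2 and 61.2 in Ezh2 null and 79.6 and 92.9 in the double null libraries, and Tnfaip3, the feedback enzyme A20, was at 49.3 and 50.8, 44.8 and 48.7, 11.5 and 11.7, and 15.9 and 17.8 RPKM in the same groups. Against control, Ezh2 null values of Nfkbia fell by 1.395 on the log2 scale (adjusted p = 3.39e-05 in limma) and those of Tnfaip3 fell by 2.02 (adjusted p = 8.46e-07). Of 15 interferon signalling factors, 7 were lower and 0 higher in Ezh2 null, and 9 lower and 0 higher in double null against Setd2 null, among them the transcription factors Irf9 (fell by 1.10 and 1.06) and Irf1 (fell by 0.96 and 1.25) and the receptor chain Ifngr1 (fell by 1.74 and 2.12). Among 17 cytokine inducers and receptors, of which 15 were tested, 3 were lower and 5 higher in Ezh2 null, shares near those of all genes. Il1a was at 40.4 and 33.0 RPKM in control and 56.0 and 51.8 in Setd2 null, against 1.325 and 1.58 in Ezh2 null and 7.535 and 7.43 in organoids lacking both, and Tnf was at 23.8 and 25.1, 25.99 and 28.1, 5.19 and 5.95, and 6.65 and 6.71 RPKM. Both cytokines are known to induce CXC ligands, and the part of the genes of these lists in the ligands' changes was not tested. Against control, Il1a fell by 3.94 (adjusted p = 3.64e-08 in limma) and Tnf fell by 1.96 (adjusted p = 1.01e-06), while the adaptor Myd88 (1.12, adjusted p = 3.71e-05) and the receptor chain Il6st (1.43, adjusted p = 1.58e-05) rose.

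Among 15 proteases that cut or shed chemokines, 9 were tested, and 5 were lower and 2 higher in Ezh2 null against control. Mmp9, which trims neutrophil-attracting ligands, was at 274 and 366 RPKM in control and 140.2 and 284 in Setd2 null, against 0.201 and 0.340 in Ezh2 null and 0.184 and 0.214 with both deleted, without overlap between the groups with and without the Ezh2 deletion. Mmp13, a collagenase, was at 27.2 and 26.1 RPKM in control and 68.9 and 68.3 in Setd2 null, against 0.01345 and 0.01572 in Ezh2 null and 0.0527 and 0.0663 in the double null libraries. It rose in Setd2 null against control (1.33 ± 0.11, adjusted p = 0.00109 in limma), and no alternative changed that call. Mmp2, a gelatinase, rose in Ezh2 null against control (1.80 ± 0.18, adjusted p = 2.7e-05). Dpp4, which truncates several ligands, was lower in Setd2 null than in control (0.798 and 0.713 against 3.36 and 2.27 RPKM, adjusted p = 0.0181) and higher in double null than in Setd2 null (4.94 and 3.83 RPKM, adjusted p = 3.95e-05). The first of these calls was lost with no filter (0.0741), with only the groups compared (0.0971) and without control replicate 1 (0.163), Setd2 null replicate 1 (0.102) or Setd2 null replicate 2 (0.0818).

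**Figure D5:**
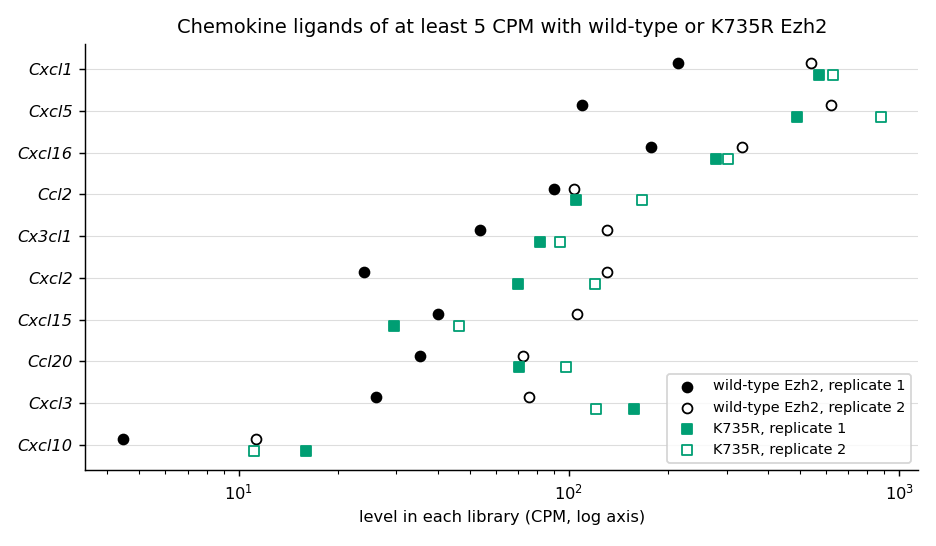
Level in CPM, on a log axis, of the 10 chemokine ligands of at least 5 CPM in the mean of wild-type Ezh2 or K735R, with 1 point per library. Wild-type Ezh2 replicate 1 is the lowest of the 4 libraries for all of them but Cxcl15.

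In the second set, K735R Ezh2 against wild-type Ezh2, the counts were scaled to CPM and tested on their own. None of the 19 ligands tested was called in edgeR's quasi-likelihood test, beside 0.0% of genes called higher and 0.00757% lower (1 of 13203), and 1 ligand had an unadjusted p under 0.05, as had 9.24% of all genes. DESeq2, limma on log2 CPM and the fits with other filters or no TMM factors likewise called 0. The median log2 fold change over the ligands was 0.36, beside -0.01 over all genes. The wild-type libraries differed from each other by more than 2-fold at 11.2% of genes, the K735R libraries at 4.73% and the control libraries of the first set at 0.106%.

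Cxcl3 had the smallest p (1.45 ± 0.52 on the log2 scale, unadjusted p = 0.0433, adjusted p = 0.522 in edgeR) and was at 26.1 and 75.8 CPM with wild-type Ezh2 and 157 and 121 CPM with K735R, without overlap. Cxcl1 was at 214 and 539.8 CPM against 573 and 631 CPM, Ccl2 at 90.0 and 103.5 against 104.9 and 166 CPM, and Cxcl5 at 109.4 and 619.8 against 492 and 878 CPM. For Cxcl1 and Ccl2 both K735R libraries were above both wild-type libraries, and for Cxcl5 they were not. Cxcl2 was at 24.02 and 130.4 against 70.2 and 120.2 CPM, Cxcl16 at 178 and 335 against 279 and 304 CPM, Cx3cl1 at 53.7 and 131 against 81.8 and 93.8 CPM and Cxcl10 at 4.47 and 11.3 against 15.9 and 11.2 CPM. In each of these 4 the groups overlapped, and wild-type replicate 1 was the lowest library. Ccl20 was at 35.5 and 72.8 against 70.7 and 97.7 CPM, also with overlap. Cxcl15 was at 40.2 and 106 against 29.5 and 46.5 CPM, also with overlap, and its mean was lower with K735R, whereas that of Cxcl1 was higher.

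Calls in this set turned on which wild-type library was kept. Without wild-type Ezh2 replicate 2, 6 ligands were called higher (Cxcl1, Cx3cl1, Cxcl3, Cxcl10, Cxcl16 and Ccl20) and none lower, beside 7.71% and 4.11% of all genes. Without wild-type Ezh2 replicate 1, Cx3cl1 alone was called, as lower (adjusted p = 0.0139), beside 2.79% of all genes higher and 1.98% lower. The single library left in each of these fits is assumed to vary like the K735R libraries. Ccl5, Ccl7, Ccl9, Ccl25, Ccl27a, Ccl28, Cxcl9, Cxcl13 and Cxcl14 were tested at means under 5 CPM. Cxcl17, Ccl28 and Ccl6, which rose with Ezh2 deletion in the first set, were at 0.404, 1.32 and 0.269 CPM or less in all 4 libraries.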

How the data were processed

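RNA was sequenced as paired reads of 150 bases in 12 organoid libraries, and 2 H3K27me3 immunoprecipitation samples and 1 input were not analysed here. The submitters' processing notes name Bowtie and RSEM with mm10, and give neither versions nor strandedness. The authors deposited RPKM for the 4 deletion genotypes, per the file headers, and whole-number counts for the K735R set, a unit taken from the values. An allele shared by the groups compared is not reported here. RPKM steps were used to recover reads per gene, which were whole within 0.01 reads in every library for 13745 (99.98%) of the 13748 genes with no 0. Low ligands rest on few reads, and each library's value is given.

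RPKM were tested as log2(RPKM + 1) in limma 3.58.1 (trended, robust, all 4 genotypes in 1 fit, mean of at least 1 RPKM over 8 libraries) and counts in edgeR 4.0.16 (TMM scaling, filterByExpr, robust quasi-likelihood). P-values were Benjamini-Hochberg adjusted over all genes and called at 0.05, two-sided. Both fits were tested on simulated data. Alternatives were scaling, filter, pseudocount, replicate block, groups fitted, other tests (DESeq2 1.42.0, edgeR on recovered reads) and leaving out each library. Ligands with a group mean of at least 5 RPKM or 5 CPM, or called in some comparison, are given by library, and other tested pathway genes are named from the 4 of each list with the smallest p. The ligands and the lists of other genes were chosen with earlier results of these data known.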

Additional observations from a re-analysis of the deposited data

Results flagged for a closer look

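The effect of Ezh2 deletion was called different between the backgrounds with and without Setd2, by the interaction test in limma, for 3 ligands. All 3 passed the filter through the groups in which they were high. None of the 13 ligands with at least 1 RPKM in the mean of every group was called. The difference of log2 fold changes was -1.55 for Ccl6, -1.33 for Ccl28 and -1.25 for Ccl9. Ccl6 rose by 2.05 with Setd2 and by 0.50 without it, and Ccl28 by 2.84 and by 1.51, while Ccl9 rose by 0.88 with Setd2 and changed by -0.37 without it. None of the 3 was called with a pseudocount of 0.1 RPKM (adjusted p = 0.0713, 0.288 and 0.0594 for Ccl6, Ccl28 and Ccl9) or with edgeR on recovered reads (0.0955, 0.796 and 0.0996). The Ccl9 call was also lost with no filter (0.0578 in limma). Among the immune markers, the myeloid genes Lyz2 and Adgre1 stood highest in the same Ezh2 null libraries as Ccl6 and Ccl9, and others did not. Cd68 was lowest in Ezh2 null, with a mean of 4.33 RPKM against 23.2 in control, 36.3 in Setd2 null and 11.1 in double null. S100a8 was highest in double null, with a mean of 3.65 RPKM against 0.799 in Ezh2 null. The part of these markers in the differences was not tested.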

How the results depend on the processing

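Across 53 calls of single ligands, 820 values under the alternatives kept direction and call in 763, lost the call in 56 and reversed in 1, and 38 calls were never lost. The reversed value is that of Ccl6 in double null against Setd2 null, -0.02 with quantile normalization (adjusted p = 0.934). For ligands lower in Ezh2 null against control, in double null against Setd2 null and in double null against control, no alternative moved the count by more than 1.5 times. In Ezh2 null against control, 5 higher became 3 with median-ratio scaling, where Ccl6 fell under the filter, 8 with no filter and 1 with a mean of at least 5 RPKM. In double null against Setd2 null, 3 higher became 1 with a mean of at least 5 RPKM. In double null against Ezh2 null, 5 lower became 2 with that filter and 2 with edgeR on recovered reads. In double null against control, 4 higher became 2 with quantile normalization and 2 with median-ratio scaling. In the interaction, 3 lower became 0 with a pseudocount of 0.1 RPKM and with edgeR on recovered reads. They also became 0 with a mean of at least 5 RPKM, which none of the 3 reached. The 0 higher became 1 with quantile normalization, with that pseudocount and with edgeR on recovered reads. The higher or lower calls that went with the filter of 5 RPKM were those of Ccl6, Ccl9, Ccl25 and Ccl28. Their means over the 8 libraries were 1.06 to 2.31 RPKM, so they were not tested under it. Over all genes, that filter left 94 higher and 52 lower in the interaction, in place of 192 and 102.

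Leaving out each library in turn gave 0 to 2 ligands lower in Setd2 null against control, 0 to 2 higher and 1 to 3 lower in the interaction, and 0 to 6 higher and 0 to 1 lower in K735R against wild-type Ezh2. The fall to 1 in the interaction came without Setd2 null replicate 1. Where 1 library of a group was left, it was assumed to vary like the other groups. Over all genes, K735R against wild-type Ezh2 gave 0 higher and 1 lower in edgeR and 177 higher and 108 lower in DESeq2.

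With the replicate number as a block (replicate block), Setd2 null against control had 1 ligand lower in place of 0, double null against Ezh2 null 5 higher in place of 3, and the interaction 1 higher in place of 0, and other counts moved by less than 1.5 times. Over genes, deviations of same-numbered libraries correlated at 0.933 between Ezh2 null and double null and at 0.358 between control and Setd2 null. The other pairs of genotypes correlated at 0.105 to 0.155, and the K735R set at 0.101. The labels tie the numbers to no shared animal, batch or day. Low level kept 11 detected ligands under the filter and out of the tests.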
